A study of Mus musculus with 4 samples.

Results

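Secreted peptide and glycoprotein hormones were followed across 4 arrays of mouse skin: the neuropeptide gene Nmu, the natriuretic peptide gene Nppb, the endothelin genes Edn1 and Edn2, and the stanniocalcin genes Stc1 and Stc2. They were 6 of 16862 named genes, read by 9 of 41174 probes, each matched to its gene through the RefSeq accession in the scanner files. In the RefSeq annotation of GRCm38.p6 they lie at chr5:76333495-76363777 (Nmu), chr4:147985786-147987205 (Nppb), chr13:42301476-42307990 (Edn1), chr4:120161206-120167360 (Edn2), chr14:69029289-69041401 (Stc1) and chr11:31359441-31370061 (Stc2). Which exon each probe reads was not analysed here. Nppb had 2 probes, Stc1 had 3 and the other members had 1 each. They were picked for large differences between tail and back on these same arrays, so their values describe these arrays and support nothing by themselves.

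Gene expression was measured 48 h after a photodynamic treatment, in which cells turn a cream of methyl aminolevulinate into a light-absorbing porphyrin and red light then drives a burst of reactive oxygen species. The 4 groups were untreated tail skin (tail control), treated tail skin, untreated back skin (back control) and treated back skin. Treated skin carried the cream for 2.5 h in darkness and was then lit at 636 nm. The dose was 10 J/cm2 for tail skin but 2.5 J/cm2 for back skin, and the back was shaved for treatment, so site and dose cannot be told apart. The design names 3 animals per group, but each group is 1 array and pooling is not stated, so there is no replicate error and no test. Strain and age of the mice are not given in the sources used here. Back RNA is called back skin throughout, whereas the tail RNA is called skin in the labels and epidermis in the extraction protocol. Whether back controls were shaved is not stated.

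As background, neuromedin U, the product of Nmu, is a neuropeptide that contracts smooth muscle, lowers feeding and activates innate lymphoid cells, through the receptors Nmur1 and Nmur2. B-type natriuretic peptide, from Nppb, is released by stretched heart muscle, lowers blood pressure through the receptor Npr1, is cleared by Npr3, and also carries itch signals from sensory neurons. Endothelins are strong vasoconstrictors cut from larger precursors by Ece1 and Ece2, and keratinocytes pass endothelin signals to melanocytes, which carry the receptor Ednrb. Stanniocalcins are secreted glycoproteins first known from calcium control in fish, and they block Pappa, a protease that frees insulin-like growth factors from Igfbp4.

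Promoter stretches of 4 members are shown because these genes had large differences that lay in different skins. They come from RefSeq, assembly GRCm38.p6, which held a promoter entry for 5 of the 6 members. Each is written 5′ to 3′ on the strand of the gene and covers the 250 bases before the start that the promoter table uses, except Nppb, where 30 bases around the TATA box are given. For Nppb that start is base 147985900, inside the gene as annotated from base 147985786, so 114 bases of its window, the printed ones among them, lie within the gene's annotated span. For the other genes shown the start is that of the annotated gene. The windows are chr5:76363778-76364027, minus strand for Nmu, chr4:147985857-147985886, plus strand for Nppb, chr4:120160956-120161205, plus strand for Edn2 and chr11:31370062-31370311, minus strand for Stc2. Capitals mark matches to the searched motifs.
Nmu: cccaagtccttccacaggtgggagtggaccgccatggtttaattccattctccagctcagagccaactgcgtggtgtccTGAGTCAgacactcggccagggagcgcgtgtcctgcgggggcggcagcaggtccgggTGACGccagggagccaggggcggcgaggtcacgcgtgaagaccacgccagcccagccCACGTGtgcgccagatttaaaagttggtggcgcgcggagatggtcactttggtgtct
Nppb: actcagccccagTATAAAaggcagaggcac
Edn2: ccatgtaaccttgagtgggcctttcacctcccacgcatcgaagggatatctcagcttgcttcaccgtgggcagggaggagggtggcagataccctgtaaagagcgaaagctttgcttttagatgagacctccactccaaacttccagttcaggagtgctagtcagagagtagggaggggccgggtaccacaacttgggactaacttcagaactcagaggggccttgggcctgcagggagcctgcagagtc
Stc2: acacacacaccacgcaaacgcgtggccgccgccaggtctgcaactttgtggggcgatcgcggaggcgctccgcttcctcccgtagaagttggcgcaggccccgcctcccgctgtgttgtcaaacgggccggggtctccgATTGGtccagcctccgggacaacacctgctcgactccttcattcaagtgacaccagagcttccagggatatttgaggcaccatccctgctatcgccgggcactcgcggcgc

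The search covered both strands and 7 motifs. The AP-1 site was spelled TGANTCA, the CCAAT box as its name, the TATA box TATAAA and the E-box CACGTG. The core bound by hypoxia-inducible factors was spelled ACGTG and lies inside the E-box. The GATA site was spelled GATAA, and the core of a cyclic AMP response element TGACG. The Nmu window held an AP-1 site at -171 to -165 from the start, the cyclic AMP element core at -114 to -110 and an E-box, with the hypoxia core inside it, at -57 to -52. Of 32851 windows of the same length before annotated starts, 6.75% held the AP-1 site, 17.8% the cyclic AMP element core, 6.02% the E-box and 16.6% the hypoxia core. Counted from base 147985900, the Nppb window held the TATA box at -31 to -26, found in 12.4% of windows, and GATA sites at -94 to -90 and at -83 to -79, found in 22.6%. The Stc2 window held a CCAAT box on the opposite strand at -111 to -107, and the window of Edn1 held one at -203 to -199, a motif of 33.8% of windows. None of the 7 motifs was found in the Edn2 window. A match is a description of letters, not a bound site.

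Values are the processed signal of the scanner with its error, which covers spots and not animals, and levels are that signal as a percentage of the array's own 75th percentile. This scaling was needed because the arrays differed in brightness: the 75th percentile was 7261 on the tail control array, 909 on tail treated, 1860.4 on back control and 1204 on back treated. Differences are log2 values after this scaling, and a difference of 2-fold or more counts as a call. A gene not well above background on 1 of 2 arrays has only a bound, written as at least. All 7 basal, 6 suprabasal and 7 wound keratinocyte markers on the array were well above background on the 4 arrays. Saturation left only 1, 1 and 3 of them, in that order, with a value in the tail and 3, 2 and 3 in the back. In the tail 0 basal, 0 suprabasal and 3 wound markers were called higher, beside 27.2% of all genes. Called lower in the tail were 1, 0 and 0, beside 6.55%, the 1 being Itga6 at -2.05. In the back 2 basal, 0 suprabasal and 3 wound markers were called higher, beside 13.6% of all genes. There 0, 2 and 0 were called lower, beside 12.6%, the 2 being Krt2 at -6.54 and Ivl at -1.98. The part of keratinocytes in the members' values was not tested. The share of calls that were higher depended on the scaling. In treated minus control tail it was 80.6%, but 57.8% after quantile normalization, 54.0% after cyclic loess, which removes differences that follow brightness, 91.3% with the background model normexp and 1.18% when the arrays were scaled to added control RNA (spike-in scaling). Spike-in scaling shifted every measured difference of a comparison by the same amount, by -2.12 in the tail, -0.51 in the back, -1.06 between untreated and 0.55 between treated skins. In the back the share was 51.8%, and 18.3% with spike-in scaling. In back control minus tail control it was 61.4%, against 47.3%, 48.0% and 16.3% after quantile normalization, cyclic loess and spike-in scaling. In back treated minus tail treated it was 43.7%, against 21.0% with normexp and 73.3% with spike-in scaling.

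Nmu was high in untreated back skin and low in treated back skin. The probe read 7151 ± 715 on tail control, 1452 ± 145 on tail treated, 15298 ± 1529.8 on back control and 82.0 ± 8.95 on back treated. As levels these were 98.5%, 159.8%, 822% and 6.81% of the array's 75th percentile, so untreated back skin was the highest and treated back skin by far the lowest. The treated back array was 121-fold below the untreated one, a log2 difference of -6.91 ± 0.21 (scanner error) and the lowest of the 12480 genes measured on both back arrays. In the tail the difference was 0.70 ± 0.20, under 2-fold. Between untreated skins Nmu was 8.35-fold higher in the back, and between treated skins 23.4-fold lower. In these bulk samples fewer cells of a type and less RNA per cell cannot be told apart. Spike-in scaling turned the tail difference to -1.43, whereas over all alternatives the back difference ran from -7.43 to -6.17.

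The receptors of Nmu were faint, and neither was called in the 4 comparisons. Nmur1, the peripheral receptor, had signals of 97.8, 16.3 and 27.5 on tail control, tail treated and back control, all well above background, while the 7.51 on back treated was not. Its difference in the tail was 0.41, in the untreated skins 0.14, and in the back only a bound of 1.03-fold lower could be given. Nmur2, the receptor of the nervous system, was not well above background on the 4 arrays. Nerve and Schwann cell markers, of which 6 of 7 listed genes were on the array, were lower in 0 and higher in 1 of 5 with a value in the back, beside 12.6% and 13.6% of all genes. Their summed level, in percent of the 75th percentile, was 928 and 848 in untreated and treated tail and 2895 and 2489.6 in untreated and treated back skin. From 97.1% to 99.1% of it was Mbp, a myelin gene whose probe was saturated on tail control, so the sum says little about the other markers. The part of nerve and Schwann cells in the Nmu values was not tested.

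**Figure D1:**
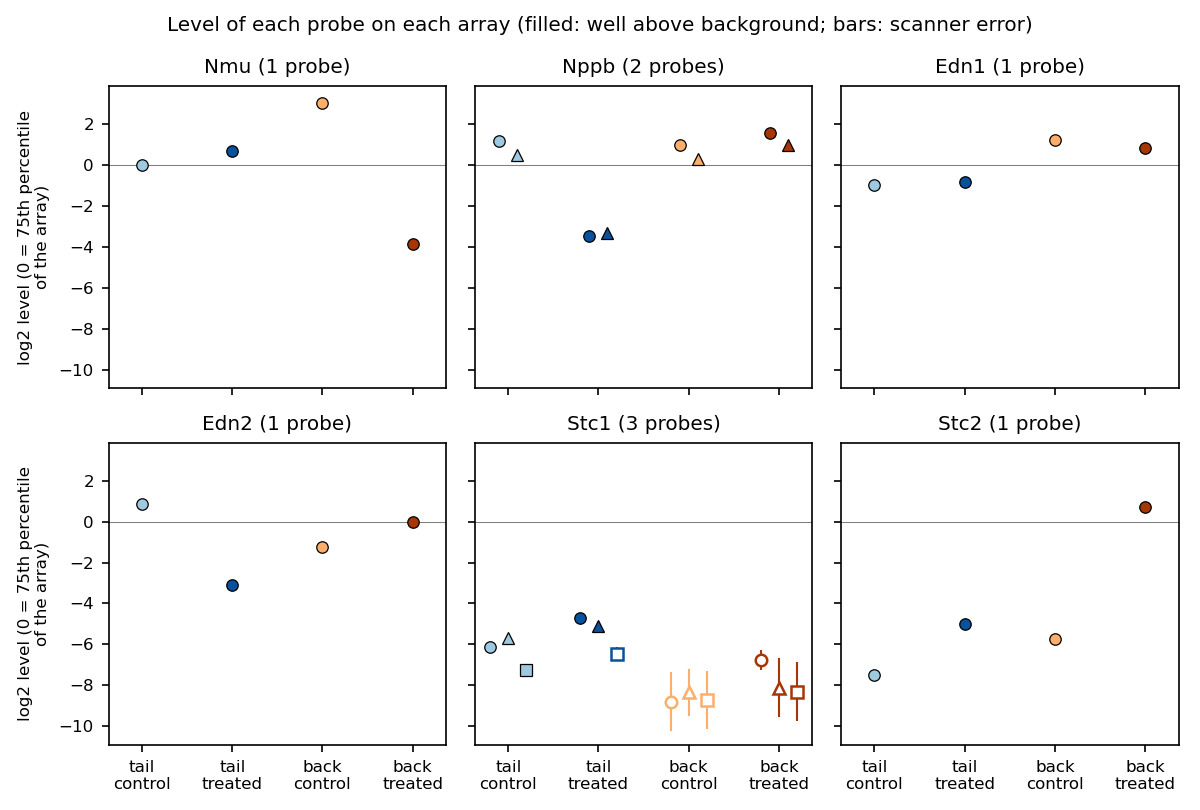
Log2 level of every probe of the 6 genes on the 4 arrays, with 0 at the array's 75th percentile; each symbol shape is a probe, filled symbols are well above background, and bars are scanner errors. Nmu is lowest on back treated at -3.88, both Nppb probes are lowest on tail treated (-3.49 and -3.33), and Stc2 stands high only on back treated at 0.73.

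Nppb showed its low level in the other skin. The brighter probe gave 16056 ± 1606 on tail control, 80.7 ± 8.33 on tail treated, 3617 ± 362 on back control and 3592 ± 359 on back treated, or levels of 221%, 8.88%, 194% and 298%. The second probe gave 10233, 90.5, 2244 and 2327, with the same array low. Nppb was thus high on 3 arrays and low on tail treated alone. In the tail the difference was -4.64 ± 0.21 by the brighter probe, 24.9-fold and the 3rd lowest of 12485 measured genes, and -3.82 ± 0.21 by the other. In the back it was 0.62 and 0.68 by these probes, under 2-fold. Between untreated skins they differed by -0.19 and -0.22, and between treated skins Nppb was 33.6-fold and 19.4-fold higher in the back. The tail difference kept its sign over the alternatives but ranged from -6.76 with spike-in scaling to -2.15 with normexp. Between untreated skins it was -1.25, past 2-fold, with spike-in scaling. Between treated skins the range was 2.54 with normexp to 5.62 with spike-in scaling.

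Of the relatives and receptors of Nppb, only the clearance receptor Npr3 was also called lower in the tail. Of 8 natriuretic genes on the array, Nppb among them, 6 had a value in the tail. There 0 were called higher and 2 lower, beside 27.2% and 6.55% of all genes. The 2 lower ones were Npr3 and Nppb itself, a member picked from these values. The median was 0.65, but 0.01 after cyclic loess, and that of all genes 0.33. The heart atrial peptide Nppa differed by 0.96 in the tail and -0.90 in the back, and the C-type peptide Nppc by 0.52 and -0.53. Npr2, the receptor of the C-type peptide, differed by 0.86 and -0.43. Npr3 differed by -1.54 in the tail, but only by -0.49 when the local background was subtracted and 50 added. Unlike Nppb, it was lowest on back treated, where its signal of 8.91 was not well above background, against 44.0 on back control. Npr1 and the processing enzyme Corin were not well above background on the 4 arrays. Between untreated skins Nppa was 2.20 higher in the back, while Nppc and Npr3 differed by -1.78 and -2.28. Heart muscle markers had 3 of 5 higher and 0 lower in the tail, with the same all-gene shares, and summed levels of 94.6% and 247% in untreated and treated tail and 213% and 204% in untreated and treated back skin. The tail median of these markers was 1.23, or 0.61 after cyclic loess and below 0 with the spike-in shift of -2.12. The list holds Nppa, and Tnnt2 made up 55.3% and 54.8% of the sum in untreated and treated tail skin. Their defining member, the heart myosin Myh6, was not well above background on the 4 arrays, and the part of heart muscle markers in the Nppb values was not tested.

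Edn2 paralleled Nppb in the tail and differed from it in the untreated skins. Its signal was 13166 ± 1317 on tail control, 108 ± 11.0 on tail treated, 798 ± 79.9 on back control and 1206 ± 121 on back treated. The levels were 181%, 11.9%, 42.9% and 100.2%, so tail control was the highest and tail treated the lowest. The tail difference was -3.93 ± 0.21, or 15.3-fold, the 6th lowest of the 12485 measured genes. In the back it was 1.22 ± 0.20, 2.34-fold higher, and under 2-fold (0.71) with spike-in scaling. Untreated back skin was 4.23-fold below untreated tail skin, and treated back skin 8.45-fold above treated tail skin. The tail value ran from -6.06 with spike-in scaling to -1.78 with normexp, and the difference between treated skins, 3.08, was 0.98 with normexp and 2.65 with the local background subtracted and 50 added.

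Edn1, the form made by endothelium and keratinocytes, differed by over 2-fold between sites and by less between treated and untreated skin. Signals were 3732 ± 373, 505 ± 50.6, 4306 ± 431 and 2119.7 ± 212 in untreated tail, treated tail, untreated back and treated back skin. The levels were 51.4%, 55.6%, 231% and 176%, with both back arrays above both tail arrays. Untreated back skin was above untreated tail skin by 2.17 ± 0.20, and treated back skin 3.17-fold above treated tail skin, or 1.66 ± 0.20. In the tail treated and control arrays differed by 0.11 ± 0.20 and in the back by -0.39 ± 0.20, the first within its scanner error and both under 2-fold. Spike-in scaling put the tail at -2.01 and the untreated skins at 1.11.

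Of 8 endothelin genes on the array, the members Edn1 and Edn2 among them, 6 had a value in the tail. There 3 were called higher and 1 lower, beside 27.2% and 6.55% of all genes. The lower one was Edn2, picked from these values. The median was 1.04 (0.54 after cyclic loess, and below 0 with the spike-in shift), beside 0.33 for all genes. The higher ones were Edn3, the endothelin of pigment and nerve precursors, at 2.05, Ednrb at 1.59 and the converting enzyme Ece2 at 1.39. Edn3 was dim, with signals between 20.8 and 50.8, and so was Ece2. Unscaled signals on tail control and tail treated were 50.8 and 26.2 for Edn3, 411 and 155 for Ednrb and 91.0 and 29.8 for Ece2. They were lower on tail treated, so the rises of these 3 genes rest on the scaling. In the back 2 of 5 were called, both higher, beside 13.6% of all genes, namely Edn2 and the vasoconstrictor receptor Ednra at 2.56, and the median was 0.19 beside -0.01. Ednra was also 1.99 higher in treated back than in treated tail skin. Ece1 was saturated on 3 of the arrays and Kel, a protease that also cuts endothelins, was not well above background on the 4. Endothelial markers, 12 on the array, had 8 of 9 higher in the tail, beside 27.2% of all genes, and 4 of 10 in the back, beside 13.6%, with 0 lower in both. Their median in the tail was 1.90, or 1.18 after cyclic loess and below 0 with the spike-in shift of -2.12, so its direction rests on the scaling. Tek, a receptor that defines the lineage, was not well above background on the 4 arrays. The summed level of the endothelial markers, which rests on the scaling too, was 20.2% and 83.2% in untreated and treated tail. In untreated and treated back skin it was 31.8% and 68.0%. Melanocyte markers had 3 of 4 lower in untreated back than in untreated tail skin, beside 17.2% of all genes. Their list holds Ednrb, which was not called there, with log2 levels of -3.96 in untreated back and -4.14 in untreated tail skin. Summed levels of these markers were 824% and 1498% in untreated and treated tail and 65.8% and 114% in untreated and treated back skin. The part of endothelial cells and melanocytes in the endothelin values was not tested.

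**Figure D2:**
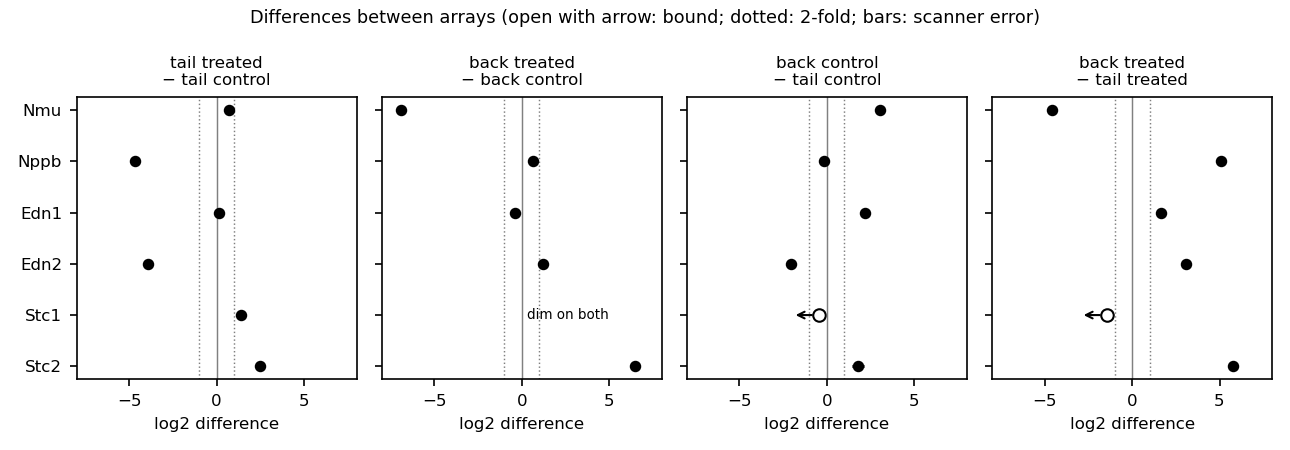
Log2 differences of the 6 genes in the 4 comparisons, 1 panel each; points are the probe that stands for the gene, bars its scanner error, dotted lines 2-fold, and open points with an arrow are bounds. Nppb and Edn2 lie far to the left in the tail (-4.64 and -3.93), and Nmu and Stc2 at opposite ends in the back (-6.91 and 6.46).

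Stc2 was near the detection limit on 3 arrays and bright on the fourth. Its signal was 39.8 ± 6.18 on tail control, 28.1 ± 3.81 on tail treated, 35.1 ± 6.26 on back control and 1999 ± 199.9 on back treated, or levels of 0.55%, 3.09%, 1.89% and 166%. On the first 3 arrays it stood 1.88, 2.74 and 1.77 times above the lowest signal that was well above background, and on back treated 116 times. The back difference was 6.46 ± 0.30, or 88.0-fold, the 3rd highest of 12480 measured genes, and between treated skins the back was 53.7-fold higher. Over the alternatives the back difference ran from 4.77 to 6.54. In the tail it was 2.50 ± 0.30 after scaling, while the unscaled signal was 28.1 on the treated and 39.8 on the untreated array. It was 1.94 after cyclic loess, 1.76 after quantile normalization, 5.14 with normexp and 0.37, under 2-fold, with spike-in scaling. Untreated back skin was 1.78 ± 0.34 above untreated tail skin, or 0.72 with spike-in scaling. Between treated skins the difference of 5.75 was 1.43 with normexp and 4.06 with the local background subtracted and 50 added.

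Stc1 was faint in the tail and not well above background in the back. Of its 3 probes, the one with the highest mean log2 level over the 4 arrays, which stands for the gene, gave 104 ± 11.4 on tail control, 34.6 ± 4.05 on tail treated, 4.16 ± 4.15 on back control and 11.0 ± 3.74 on back treated. The second probe gave 143, 26.6, 5.76 and 4.35, and the third 47.9, 10.4, 4.44 and 3.78, of which only the tail control value was well above background. The second probe was the brighter one on tail control, and the order of the probes rests in part on back values not well above background. In the tail the first probe was 1.41 ± 0.23 higher and the second 0.57 ± 0.25, so the 2-fold call rests on the choice of probe. The call also ended after cyclic loess (0.38), after quantile normalization (0.69) and with the mean of the probes (0.99), and with spike-in scaling the value was -0.72. In the back no difference could be given. Treated back skin was at least 2.65-fold below treated tail skin by the first probe and at least 2.04-fold by the second, and untreated back skin at least 1.34-fold and 1.84-fold below untreated tail skin. Between treated skins the bound was under 2-fold with spike-in scaling (-0.86) and with the local background subtracted and 50 added (-0.82), and the call was also lost when a difference had to exceed 3 spot errors. Between untreated skins it was past 2-fold after cyclic loess (-1.10) and with spike-in scaling (-1.49), and the value without a filter on dim spots was -2.68.

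Of the 6 genes of the stanniocalcin list on the array, 5 had a value in the tail. The only 2 called, both higher, were Stc1 and Stc2, members picked from these values, where 27.2% of all genes were called higher. In the back 4 had a value, with Stc2 called higher and Pappa lower, beside 13.6% and 12.6% of all genes. Pappa, the protease they block, gave signals of 3568 and 376 in untreated and treated tail and 409.8 and 117 in untreated and treated back skin. It differed by -0.25 in the tail and -1.18 in the back, where Stc2 was high, and by -1.16 and -2.09 between untreated and between treated skins. Its substrates Igfbp4 and Igfbp5, which bind insulin-like growth factors, differed by 0.47 and 0.34 in the tail and by -0.47 and 0.68 in the back. Igfbp5 was lower in back than in tail skin, at -1.79 without and -1.45 with treatment. Pappa2 was not well above background on the 4 arrays.

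Set side by side, 4 of 6 members were called in the tail, 2 higher (Stc1 and Stc2) and 2 lower (Nppb and Edn2), where 33.7% of all genes with a value were called, 27.2% as higher and 6.55% as lower. In the back 3 of 5 were called, Edn2 and Stc2 higher and Nmu lower, beside 26.2% of all genes, 13.6% higher and 12.6% lower. Between untreated skins 4 of 6 were called, with Nmu, Edn1 and Stc2 higher and Edn2 lower in the back, beside 44.6%, 27.4% higher and 17.2% lower. Between treated skins 6 of 6 were called, with Nppb, Edn1, Edn2 and Stc2 higher and Nmu and Stc1 lower in the back, beside 36.4%, 15.9% higher and 20.5% lower. The choice of members used these comparisons, so the counts are printed without further reading.

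The back response minus the tail response was -7.61 ± 0.30 for Nmu, which ranked 3rd in size among 11281 genes measured on the 4 arrays. It was 5.26 ± 0.29 for Nppb (rank 32), 5.16 ± 0.29 for Edn2 (rank 35), 3.96 ± 0.42 for Stc2 (rank 139) and -0.51 ± 0.29 for Edn1 (rank 7735). With normexp it was 2.74 for Nppb, 2.96 for Edn2 and -6.68 for Nmu, and with spike-in scaling 6.87, 6.77 and -6.00. For Stc2 it was -0.37 with normexp and 2.27 with the local background subtracted and 50 added, and for Edn1 it was 1.11 with spike-in scaling. Stc1 had none.

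**Figure D3:**
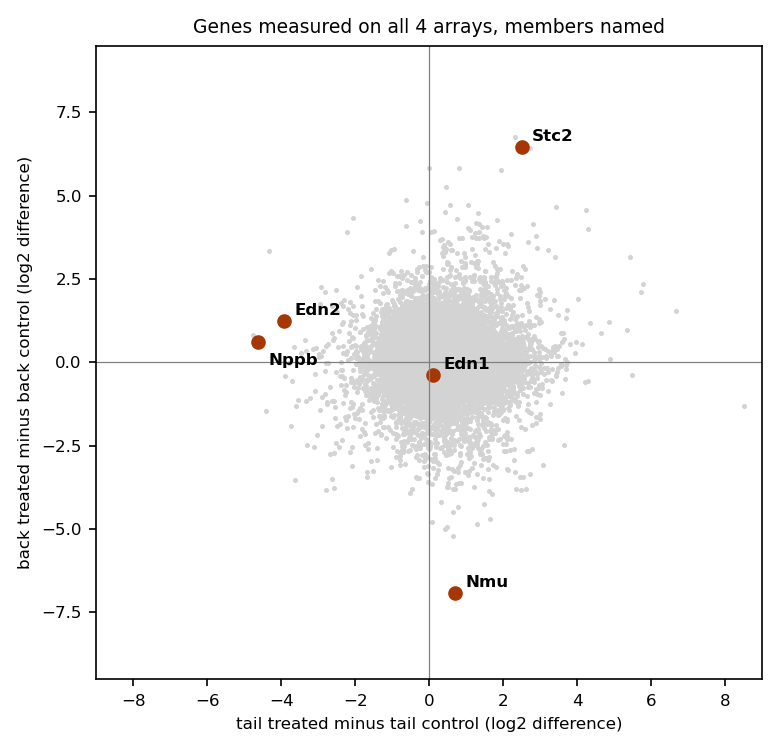
Treated minus control log2 difference in tail skin (horizontal) against back skin (vertical) for 11281 genes measured on the 4 arrays (grey), with 5 of the 6 genes named. Nppb and Edn2 lie at the left edge, Nmu at the bottom edge (0.70, -6.91) and Stc2 near the top (2.50, 6.46), while Edn1 is in the dense centre.

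The genes with the most similar 4-array profile were found by the distance between log2 levels, each gene centred on its own mean over the 4 arrays. With 4 points many profiles lie close together, and the distances are given as a description. For Nppb the nearest was the cytokine gene Tnf at a distance of 0.22, whose log2 level was -5.14 on tail treated and -0.88 to -0.07 on the others. The guidance molecule gene Sema3c (0.92) and the interferon-response factor Irf1 (1.07) followed. For Edn2 they were the neurotrophin Ntf3 (0.75), Stard13 (1.00) and the autophagy gene Dram1 (1.03). For Stc2 they were Prl2c3, of the prolactin family (1.07), the myeloid receptor Cd300lf (1.38) and the cytokine gene Il24 (1.52). For Nmu no gene lay within 1: the nearest were Cd4 (1.53), Scgb1b27 (1.57) and then the transcription factor Lhx6. Edn1 had 715 genes within 1, led by Serpinf2 (0.11), Lck (0.12) and Orc4 (0.13).

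Hormone precursors are cut and trimmed by a shared set of enzymes. Of 14 such prohormone processing genes on the array, 10 had a value in the tail, where 3 were called higher, 1 was called lower, beside 27.2% and 6.55% of all genes. The tail median was 0.19, but -0.19 after cyclic loess, and that of all genes 0.33. In the back 0 of 10 were called higher and 3 lower, beside 13.6% and 12.6%, and the median was -0.49 beside -0.01. In the back the lower ones were Chga, a protein of secretory granules, at -2.91, Pcsk1n, an inhibitor of a convertase, at -1.29, and the convertase Furin, at least 2.96-fold lower. In the tail Chga was 1.47, the carboxypeptidase Cpe 1.05 and the granule protein Scg3 1.03 higher, and the carboxypeptidase Cpd differed by -1.16. Unscaled signals on tail control and tail treated were 931 and 322 for Chga, 44759 and 11625 for Cpe and 726 and 185 for Scg3. They were lower on tail treated, so the rises of these 3 genes rest on the scaling. Chga was 6.62 higher in untreated back than in untreated tail skin, from signals of 23543 and 931. Cpe was at least 5.60-fold and Cpd 1.48 higher there, and the amidating enzyme Pam and the convertase Pcsk4 differed by -1.48 and -1.20.

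**Figure D4:**
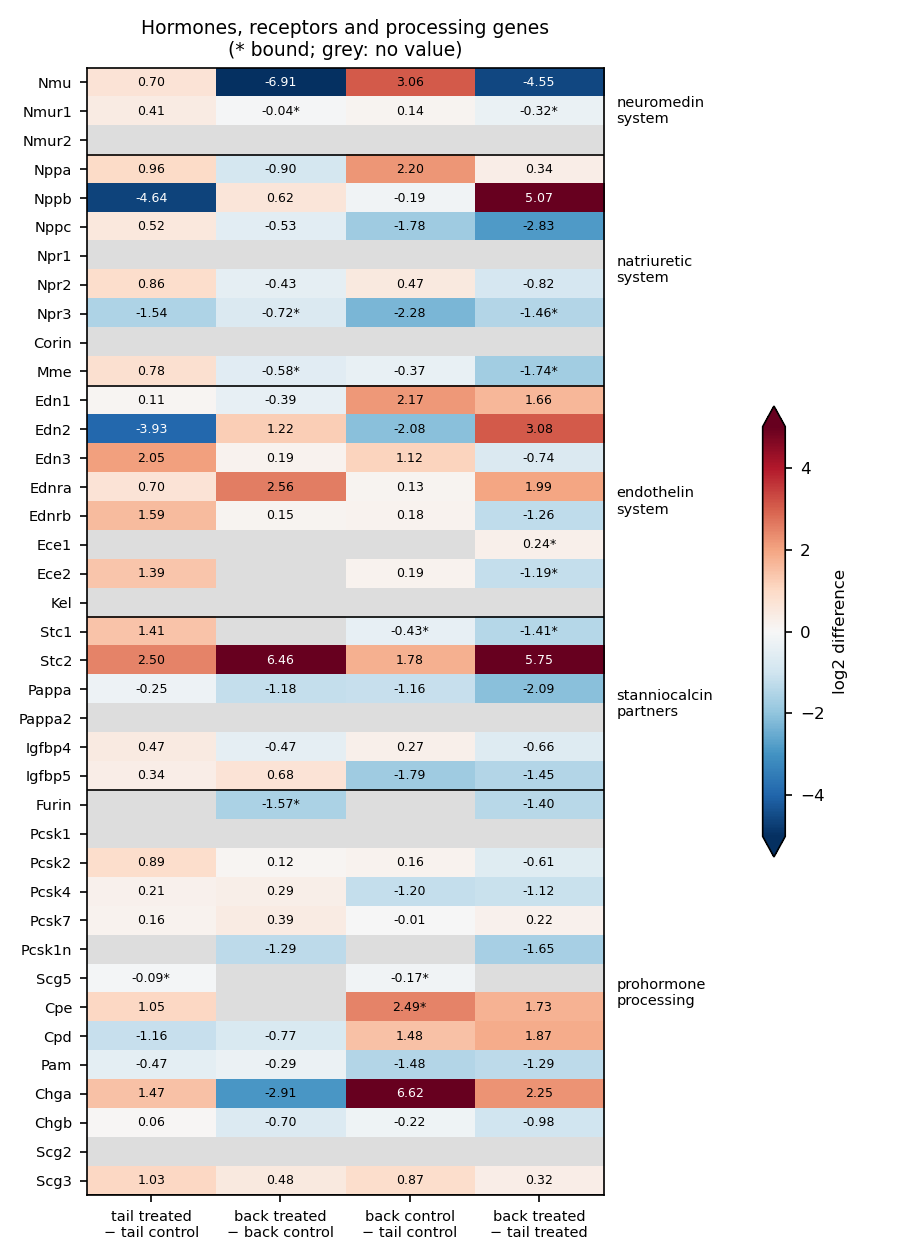
Log2 differences in the 4 comparisons (columns) for ligands, receptors, proteases and processing genes (rows, grouped by list); red is higher and blue lower in the first-named array, stars are bounds and grey cells have no value. Strong colours fall on Nmu, Nppb, Edn2, Stc2 and Chga, and the receptors are paler, with Ednra at 2.56 in the back the highest of them.

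Among 68 other secreted peptide hormones and neuropeptides on the array, 52 had a value in the tail, of which 27 were called higher and 4 lower, beside 27.2% and 6.55% of all genes. Their median was 1.01 (0.51 after cyclic loess, and below 0 with the spike-in shift of -2.12), beside 0.33 for all genes. The highest were the tachykinin Tac2 at 3.71, the islet peptide Iapp at 3.14, oxytocin (Oxt) at 2.58 and Tac4 at 2.39. Unscaled signals on tail control and tail treated were 332 and 543 for Tac2 and 125 and 138 for Iapp. Those of Oxt, 599 and 450, and of Tac4, 61.2 and 40.2, were lower on tail treated, so their rise rests on the scaling. The 4 lower ones were the vasodilator adrenomedullin (Adm) at -2.39, cholecystokinin (Cck) at -1.83, apelin (Apln) at -1.70 and the calcitonin gene-related peptide Calcb at -1.66. Adm and Apln both act on blood vessels, and their signals on tail control were 34034 and 24778. With the local background subtracted and 50 added Cck was at -0.95.

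In the back 48 of these hormones had a value, 8 of them called higher and 8 lower, beside 13.6% and 12.6% of all genes, and the median was 0.06 beside -0.01. The metabolic hormone Fgf21 was 4.19 higher, from a signal of 289 on back control to 3405 on back treated. Adm2 followed at 2.81, Adm at 1.77 and the prokineticin Prok2 at least 1.68 higher. Gastrin (Gast) differed by -2.79, insulin 2 (Ins2) by -2.49, Calcb by -2.42 and Adcyap1, a neuropeptide that dilates vessels, by -2.29. Adm thus was lower in the tail and higher in the back, as Edn2 was, and Cck, 1.44 higher in the back, shared this, while Adcyap1 was the reverse, at 2.20 in the tail. The unscaled signal of Adcyap1 was 2638 on tail control and 1519 on tail treated, so its rise in the tail rests on the scaling. Between treated skins Adm was 4.51, Fgf21 3.81 and Calcb 2.41 higher in the back, and neurotensin (Nts) at least 3.42, whereas Adcyap1 differed by -4.28, secretin (Sct) by -4.03 and Ins2 by -2.35, and neuropeptide Y (Npy) was at least 7.28-fold lower. Between treated skins 10 of 54 hormones were called higher and 14 lower in the back, beside 15.9% and 20.5% of all genes. Between untreated skins 17 of 49 were higher and 5 lower in the back, beside 27.4% and 17.2%. The higher ones were led by Nts at 4.51, Calcb at 3.16, Gast at 2.88 and the iron hormone Hamp at 2.52. Among the lower ones were Cck at -3.09, Apln at -2.15, Sct at -2.02 and Npy, at least 5.51-fold lower.

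**Figure D5:**
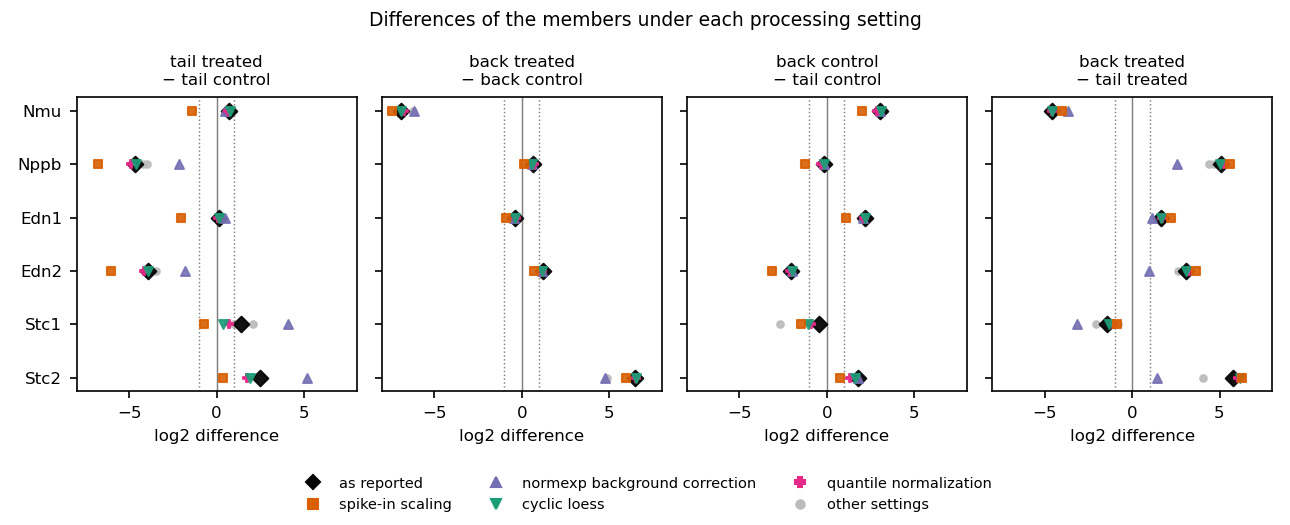
Log2 differences of the 6 genes in the 4 comparisons as reported (black diamonds) and under 13 alternative settings; dotted lines mark 2-fold. Spike-in scaling (squares) moves the tail values to the left, Nmu to -1.43 and Edn1 to -2.01, and normexp (triangles) brings Nppb and Edn2 in the tail to -2.15 and -1.78.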

How the data were processed

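Total RNA of mouse skin (200 ng per array, per the labels) was labelled with Cy3 and read on 4 Agilent arrays with a single dye, all on 1 slide. Each group had 1 array, so its position on the slide cannot be told apart from the group. The number of arrays limits the precision. Sample titles gave the groups. The processed signal, as deposited, is the intensity of a spot after background correction by Feature Extraction 10.5.1.1, per the file headers (10.7 in the submitters' processing notes), and was not normalized across arrays. The authors' deposited table is on a log2 scale, centred per probe, and how it was made is not stated. Apart from a constant, its differences equalled those of the log2 processed signal within 0.001 for 98.8% to 99.7% of probes, which settled scale and direction. Its column medians were -0.28 and 0.10 for untreated and treated tail and -0.03 and 0.08 for untreated and treated back skin.

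Outlier spots were left out, repeated spots averaged, and log2 signals set against each array's 75th percentile. Of 41174 probes, 24375 (59.2%) matched 1 symbol by RefSeq accession in GRCm38.p6. The probe with the highest mean log2 level over the 4 arrays stood for a gene. Dim spots gave bounds against the lowest signal well above background. Saturated spots were kept at their value and gave bounds too. No test was run on the real arrays. The members and gene lists were chosen with earlier results of these data known. Named from each list were up to 4 called genes each way per comparison, beside receptors and partners of the members, and for profiles the 3 nearest genes, without clone and predicted-gene names. The planned normexp correction used the median spot signal. limma 3.58.1 in R 4.3.3 gave the quantile, cyclic loess and normexp alternatives.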

Additional observations from a re-analysis of the deposited data

Results flagged for a closer look

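Nmu, Nppb, Edn2 and Edn1 had treated minus control differences of opposite sign in tail and back. With 1 array per group this difference was not tested. The back response minus the tail response was -7.61 for Nmu, 5.26 for Nppb, 5.16 for Edn2 and -0.51 for Edn1. The tail and back values were 0.70 and -6.91 for Nmu, -4.64 and 0.62 for Nppb, -3.93 and 1.22 for Edn2, and 0.11 and -0.39 for Edn1. Nmu in the tail, Nppb in the back and Edn1 in both were under 2-fold. The tail value of Edn1 lay within its scanner error of 0.20, so its sign there is not settled. With spike-in scaling Nmu and Edn1 were negative in both skins in place of opposite, at -1.43 and -2.01 in the tail.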

How the results depend on the processing

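Values of the members were recomputed under 13 alternatives, 12 chosen at the start and 1 (local background subtracted and 50 added) after the normexp fit was seen. Of the members' values 263 kept their direction and their side of 2-fold, 9 fell under 2-fold, 1 (Stc1 between treated skins) lost its call to the rule of 3 spot errors and 4 passed 2-fold, while 2 that were under 2-fold took the other sign (Nmu at -1.43 and Edn1 at -2.01 in the tail with spike-in scaling). The 1 called value that reversed was Stc1 in the tail, at -0.72 with spike-in scaling. Many of the values that kept their place were fixed in advance. Alternatives that changed only a filter or the call rule left measured differences as they were. The mean of the probes could change only Nppb and Stc1, and the authors' table differs from the processed signal mostly by a constant. Values that a filter removed were not counted. The count of 263 thus overstates how well the values hold. With a signal of at least 200 on both arrays 0 members were called in the tail, 1 in the back skin and 1 between treated skins, because Stc1 and the low arrays of Nmu, Nppb, Edn2 and Stc2 lie under that signal. Of all genes it left 1619 calls for the tail, 2205 for the back, 3422 between untreated and 2616 between treated skins, against 4338, 3524, 5713 and 5135. In the tail 7176 were called without a filter and 10705 with spike-in scaling. The 6 spike-in probes fell by 0.87 from tail control to tail treated on the log2 scale, where the 75th percentile fell by 3.00. On the tail treated array normexp fitted a background SD of 535, against 0.342 and 0.593 on the back arrays, so that a spot 20 above its local background became 680.4 there and 24.8 to 26.1 elsewhere. Its values for comparisons with that array rest on this fit. No paired analysis was possible because each group has 1 array, and for the same reason no replicate could be left out.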
